A study of Homo sapiens with 19 samples.

Results

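The human alpha and beta globin genes encode the protein chains of haemoglobin. 9 of them were described here, chosen by name from the GENCODE annotation of the hg38 build: HBZ, HBM, HBA2 and HBA1 of the alpha cluster on chromosome 16, and HBE1, HBG2, HBG1, HBD and HBB of the beta cluster on chromosome 11. They are 9 of the 20033 protein-coding genes on chromosomes 1 to 22, X and Y. The study asked which transposon families act as regulatory elements in acute myeloid leukaemia (AML), and profiled acetylation of histone H3 at lysine 27 (H3K27ac), a mark of active promoters and enhancers, by chromatin immunoprecipitation and sequencing (ChIP-seq). H3K27ac peak lists of 4 established leukaemia cell lines were used. HL-60 and Molm13, both AML lines, were untreated. OCI-AML3, the third AML line, and K562, a chronic myelogenous leukaemia line, both carried a lentiviral dCas9-KRAB-mCherry vector, which encodes a nuclease-dead Cas9 fused to a repressor domain, together with a BFP-marked sgRNA vector left empty, and both were sorted for the pair of fluorescent reporters. Each line had 1 library with a peak list, so no value below has a replicate error and no difference between lines was tested. The K562 line and its vectors cannot be told apart, since no untransduced K562 list was analysed here.

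Haemoglobin is built from a pair of alpha-type and a pair of beta-type chains. In both clusters the genes lie in the order in which they are used in development: embryonic zeta (HBZ) precedes adult alpha (HBA2 and HBA1), and embryonic epsilon (HBE1) precedes fetal gamma (HBG2 and HBG1) and then adult delta (HBD) and beta (HBB). Their high transcription in red cell precursors depends on distant enhancers, which for the alpha cluster lie within introns of the neighbouring gene NPRL3 and for the beta cluster form the locus control region upstream of HBE1. GATA1, KLF1, TAL1 and NFE2 are among the factors known to bind them, and K562 is widely used as a model of embryonic and fetal globin expression.

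The promoter sequences of HBD and HBM, the only members with an entry in the RefSeq promoter table used (GRCh38.p14), are shown because the results differed between them: HBD was the member with a peak in more than 1 line, and HBM had a peak in none. Each run is the 250 bp before the RefSeq transcription start site (TSS) on the gene's own strand. HBD lies at chr11:5234484-5234733 on the minus strand and HBM at chr16:165728-165977 on the plus strand. Capitals mark every match, on either strand, to 5 words: the CCAAT box, the TATA box forms TATAA or ATAAAA, the GATA factor core GATAA, and CACCC, the core of KLF1 sites. TTATC in capitals is GATAA and GGGTG is CACCC, each read on the opposite strand. ATAAAA can overlap both TATAA and GATAA.
HBD: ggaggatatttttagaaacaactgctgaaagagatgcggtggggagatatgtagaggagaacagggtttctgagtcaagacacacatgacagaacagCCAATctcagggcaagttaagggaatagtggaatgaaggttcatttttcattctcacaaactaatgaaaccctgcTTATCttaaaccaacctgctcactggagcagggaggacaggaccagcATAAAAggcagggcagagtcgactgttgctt
HBM: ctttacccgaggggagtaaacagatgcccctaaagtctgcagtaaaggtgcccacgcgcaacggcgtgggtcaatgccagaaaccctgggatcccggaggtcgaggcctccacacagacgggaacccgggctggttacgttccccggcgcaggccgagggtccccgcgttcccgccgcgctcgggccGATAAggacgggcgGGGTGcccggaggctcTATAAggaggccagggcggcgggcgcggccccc

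The HBD promoter held ATAAAA 31 to 26 bp before the TSS, GATAA on the opposite strand 78 to 74 bp before it, and CCAAT 153 to 149 bp before it. In the HBM promoter, TATAA lay 33 to 29 bp, CACCC on the opposite strand 49 to 45 bp, and GATAA 63 to 59 bp before the TSS. None of these short words is rare: CCAAT occurred in 33.0% of the 27305 promoters of that table, TATAA in 19.6%, ATAAAA in 15.2%, GATAA in 21.0% and CACCC in 53.7%. A match describes the letters in the window only.

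The list of K562 held 37424 peaks, that of OCI-AML3 37571, that of Molm13 35136 and that of HL-60 20772, covering 2.62%, 2.39%, 1.98% and 0.820% of the genome. Fold enrichment, the peak caller's ratio of reads in a peak over background, ran on different scales between lists: the median over all peaks was 2.85, 2.95, 3.80 and 3.60, and the highest 6.91, 8.68, 22.7 and 21.2, in the same order. For that reason lines are compared below by the percentile of a peak's fold within its own list, and not by the fold itself. Read depth is unknown from these lists. Markers of cell type were read as genes with a peak within 500 bp of the TSS. 7 of 8 erythroid markers were marked in K562, where the membrane transporter gene SLC4A1 was not, whereas the AML lines each had 1 of 8, the transferrin receptor gene TFRC. The myeloid list stood at 7 of 8 in HL-60, 8 of 8 in Molm13 and OCI-AML3 and 3 of 8 in K562. Of 6 lymphoid markers 3 were marked in HL-60 and 1 in each other line. As background, K562 had such a peak at 52.1% of all protein-coding genes, OCI-AML3 at 54%, Molm13 at 49.9% and HL-60 at 41%. The 3 of 8 myeloid markers in K562 and the 3 of 6 lymphoid markers in HL-60 were not far from these shares. These lists are short, and no marker count was tested against the background.

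K562 was the line in which the globin genes carried the mark. 6 of the 9 members had an H3K27ac peak within 500 bp of the TSS in K562 (HBZ, HBE1, HBG2, HBG1, HBD and HBB), against 1 in Molm13 (HBD) and 0 in both HL-60 and OCI-AML3. Over all protein-coding genes the share with a TSS peak was 52.1% in K562, while OCI-AML3 had 54%, Molm13 49.9% and HL-60 41%. The members thus lay below the background in the 3 AML lines, and their count in K562 was not far above it. What set them apart in description was the pattern over lines: 5 of 9 members were marked in K562 and in no other line, a pattern found in 4.38% of protein-coding genes, and HBD was marked in K562 and Molm13 alone, as were 0.329% of genes. The 3 members marked in none of the lines, HBM, HBA2 and HBA1, all belong to the alpha cluster, and 40% of genes were likewise unmarked in all 4 lists. The 9 genes are not independent of one another, since neighbours within a cluster can lie under 1 peak.

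**Figure D1:**
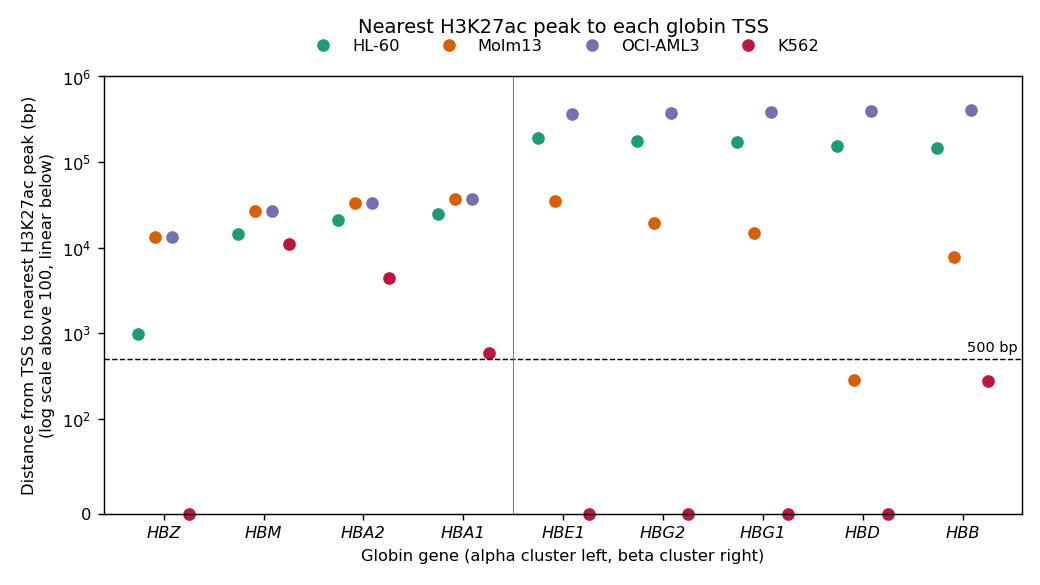
Distance from the TSS of each globin gene to the nearest H3K27ac peak in each of the 4 cell lines (1 library per line), on a log scale above 100 bp and a linear scale below. K562 lies within 500 bp at 6 genes and Molm13 at HBD, while in OCI-AML3 the nearest peak to the beta genes is 362 to 405 kb away.

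Within the K562 list the peaks at the TSSs were ordered by fold. HBG2 and HBG1 came first (4.40, under a single peak), then HBD (4.03), HBE1 (3.81), HBZ (3.74) and HBB (2.31). Each fold is 1 value for a whole peak, and these peaks ran from 697 bp (HBZ) to 25.9 kb (HBE1) in width. With 1 library, neighbours in that order cannot be separated from one another by any measured spread. Ranked among the 10444 protein-coding genes with a TSS peak in K562, whose median fold was 3.63, HBG2 and HBG1 were at the 87.7th percentile, HBD at the 72.5th, HBE1 at the 60.5th, HBZ at the 56.7th and HBB at the 0.680th. By fold, then, the 1 peak shared by the fetal genes stood in the upper part of the marked genes and HBB near the bottom. The peaks of the embryonic genes HBE1 and HBZ were close to the middle, below that of the adult gene HBD. Whether the order follows developmental stage cannot be told from 1 library and peaks of unlike width.

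The breadth of the peaks distinguished the embryonic and fetal genes of the beta cluster. HBE1, HBG2 and HBG1 lay under K562 peaks of 10 kb or wider, which held for 2.05% of protein-coding genes in that line. The peak at HBE1, the embryonic epsilon chain, spanned chr11:5267441-5293344, was 25.9 kb long and ranked 22nd of all 37424 K562 peaks by width. Its fold was 3.81 (85.7th percentile of the list) and its q value 3.48e-07. From the HBE1 TSS it ran 2.50 kb into and past the gene and 23.4 kb upstream, so that it covered 93.6% of the 25 kb upstream of HBE1, where the locus control region lies. The HBE1 promoter and most of these 25 kb were therefore called as a single region in K562. Neither HL-60, Molm13 nor OCI-AML3 had a peak in those 25 kb.

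HBG2 and HBG1, the fetal gamma chains, shared 1 K562 peak at chr11:5237953-5259658. It was 21.7 kb long, ranked 39th by width, and had the highest fold of the beta window (4.40, 95.5th percentile, q = 4.69e-09). The TSSs of the pseudogene HBBP1 and of the non-coding gene BGLT3 were under it too, so the value belongs to the whole stretch and not to either gamma gene. Between this peak and that of HBE1 lay a small K562 peak of 1.15 kb with a fold of 2.94.

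HBD, the minor adult delta chain, was covered in K562 by a separate peak of 4.61 kb at chr11:5231673-5236278, with a fold of 4.03 (90.3rd percentile, q = 2.70e-07). That peak included the whole of the HBD promoter printed above. In Molm13 the only peak of the beta window lay here as well, at chr11:5234767-5235160. It was 394 bp long, began 284 bp upstream of the HBD TSS and had a fold of 3.37, at the 34.3rd percentile of the Molm13 list (q = 0.0112). The Molm13 peak was thus narrow and in the lower part of its list, it lay just upstream of the printed promoter, and it was lost under stricter settings.

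HBB, the adult beta chain, had the weakest TSS peak of the members in K562. The peak at chr11:5227349-5228915 began 278 bp upstream of the TSS and did not cover it. Its fold of 2.31 was at the 4.83rd percentile of the list, and its q of 0.0505 was above the stated limit of 0.05, as it was for 5.62% of K562 peaks. A further K562 peak at chr11:5224288-5225486 overlapped the 3′ end of HBB, with a fold of 2.99 and a q of 0.00134. The adult gene was therefore flanked by peaks, with none over its own start.

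The window around the beta cluster, with 100 kb either side of the outermost genes, covered 244.5 kb (chr11:5125464-5369945). K562 had 20 peaks in it, Molm13 1, and HL-60 and OCI-AML3 0 each. Peaks covered 30.4% of the window in K562 and 0.161% in Molm13. 19 of the 20 K562 peaks overlapped no peak of another line, and these made up 69.6 kb. How many of all K562 peaks overlap no peak of another line was not computed, so this count has no background to be read against. In the AML lines the nearest peak to a beta globin TSS was 147 to 189 kb away in HL-60, 362 to 405 kb in OCI-AML3 and, apart from HBD, 7.70 to 34.8 kb in Molm13. The other protein-coding genes of the window, which include olfactory receptor genes, were marked at 0 of 8 TSSs in each AML line and at 2 of 8 in K562, namely OR52A1 (fold 2.90) and a gene with no symbol that starts under the gamma globin peak.

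**Figure D2:**
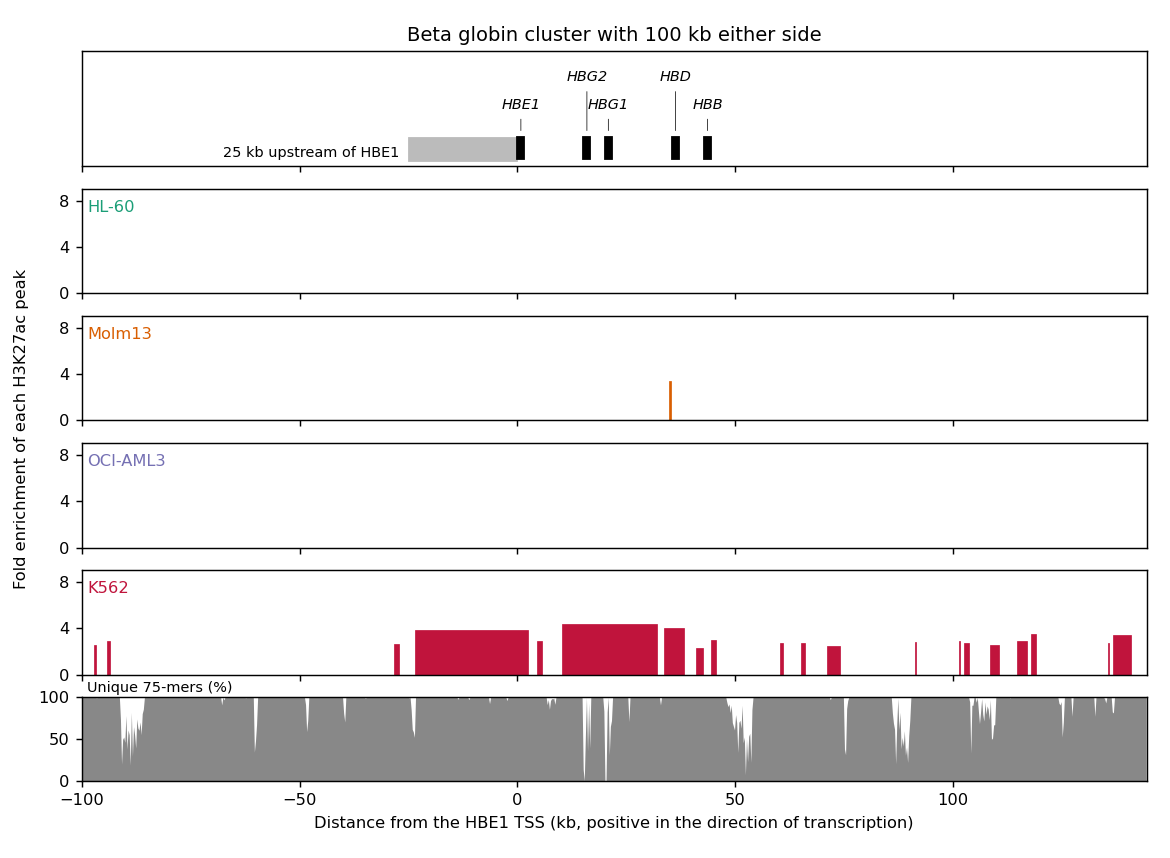
H3K27ac peaks around the beta globin cluster in each cell line, drawn to scale by distance from the HBE1 TSS (kb), with fold enrichment as height; the top row shows the genes (black) and the 25 kb upstream of HBE1 (grey), and the bottom row the share of 75-base words found once in the genome. K562 shows wide blocks of 25.9 and 21.7 kb over HBE1 with its upstream region and over HBG2 and HBG1, Molm13 1 narrow peak at HBD, and the other lines no peak.

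The alpha cluster differed from the beta cluster in that its surroundings were marked in every line, and of its 4 members HBZ alone was marked, in K562. The window with 100 kb either side (chr16:52644-277522, 224.9 kb) held 22 peaks in K562, 6 in OCI-AML3 and 7 in each of Molm13 and HL-60, covering 25.2%, 4.55%, 4.55% and 3.37% of it. Of the 22 K562 peaks, 5 overlapped peaks of all 3 other lines, 1 overlapped some of them, and 16, together 38.5 kb, overlapped none. As for the beta window, the same share over all K562 peaks was not computed. Of the 9 other protein-coding genes of the window, 6 were marked in all 4 lines. The share of all protein-coding genes with that pattern was not computed. The 6 neighbouring genes were POLR3K, SNRNP25, MPG, NPRL3, LUC7L and FAM234A. The peaks of highest fold in the AML lines were at these genes: FAM234A, POLR3K with SNRNP25, and NPRL3 in HL-60 (85.2nd, 73.2nd and 55.7th percentile of its list), LUC7L, NPRL3 and FAM234A in Molm13 (91.8th, 87.1st and 85.4th), and LUC7L, NPRL3 and POLR3K with SNRNP25 in OCI-AML3 (94.3rd, 93.3rd and 89.8th). In K562 the highest were a peak at the 3′ end of HBZ (93.1st), the NPRL3 promoter (92.0th) and FAM234A (91.5th).

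NPRL3, whose body (chr16:84271-138677, 54.4 kb) holds the alpha globin enhancers, was marked at its promoter in all 4 lines but within its body mainly in K562. The promoter peak was 5.96 kb wide in K562, 1.52 kb in OCI-AML3, 1.40 kb in Molm13 and 786 bp in HL-60. Median widths over the whole lists were 1290, 1282, 1142 and 893 bp, in the same order. Within its own list its fold was at the 92.0th percentile in K562, the 93.3rd in OCI-AML3, the 87.1st in Molm13 and the 55.7th in HL-60, so that the K562 peak was the widest without standing higher in its list than that of OCI-AML3. Peaks covered 49.2% of the body in K562, and in the AML lines 4.28% (OCI-AML3), 4.03% (Molm13) and 1.62% (HL-60). Each AML line had a further peak in MPG, in the stretch where MPG and the far end of NPRL3 overlap on opposite strands, with a fold near the middle of its list in every case (50.4th percentile for Molm13, 52.5th for HL-60, and for OCI-AML3 2.95 beside a list median of 2.95). Molm13 alone among them had a peak deeper in the gene, of 772 bp at chr16:127814-128585 with a fold of 3.02 (14.6th percentile) and a q of 0.0475.

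K562 had 7 peaks in NPRL3. The widest, at chr16:110743-125328, was 14.6 kb long and ranked 173rd by width, with a fold of 3.60 (80.2nd percentile, q = 6.42e-07). It lay 27.3 to 41.9 kb upstream of the HBZ TSS. Next to it were peaks of 3.91 kb (fold 2.93), 1.91 kb (2.64) and 0.967 kb (2.81), and farther from HBZ lay peaks of 0.517 kb (2.54) and 0.332 kb (2.34). Between the NPRL3 promoter and HBZ, K562 also had a peak of 6.01 kb at chr16:141966-147973 (fold 3.13) and one of 1.49 kb (fold 2.65), so that marked stretches followed each other from NPRL3 to the embryonic gene.

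HBZ, the embryonic zeta chain, was the marked member of the alpha cluster. Its K562 peak at chr16:152593-153289 covered the TSS, was 697 bp long, and had a fold of 3.74 (84.0th percentile, q = 2.40e-06). The K562 peak at its 3′ end, chr16:154330-155098, was at the 93.1st percentile. In the 1.04 kb between these peaks 23.9% of 75-base words occurred once in the genome, against 79.5% in the TSS peak and 97.7% in the 3′ peak, and the part of repeated sequence in the narrow width and the split of the HBZ peaks was not tested. In HL-60 the nearest peak ended 985 bp upstream of the HBZ TSS (chr16:151051-151659, fold 3.29, 36.6th percentile, q = 0.0208), outside the 500 bp limit, and in Molm13 and OCI-AML3 the nearest was the NPRL3 promoter peak, 13.3 and 13.4 kb away.

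HBM, which encodes the mu chain, and HBA2 and HBA1, the adult alpha chains, had no TSS peak in any line. In K562 the distance from the TSS to the nearest peak was 10.9 kb for HBM, 4.39 kb for HBA2 and 590 bp for HBA1. The peak next to HBA1, at chr16:177270-178490, overlapped the 3′ end of that gene with a fold of 2.72 (40.2nd percentile, q = 0.00455). Between HBZ and this peak K562 had a gap of 22.2 kb, chr16:155099-177269, which held HBM, HBA2, the pseudogenes HBZP1 and HBAP1 and the start of HBA1. Beyond HBA1, the theta globin gene HBQ1 was marked in K562 with a fold of 2.92 (54.4th percentile) and in no AML line.

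**Figure D3:**
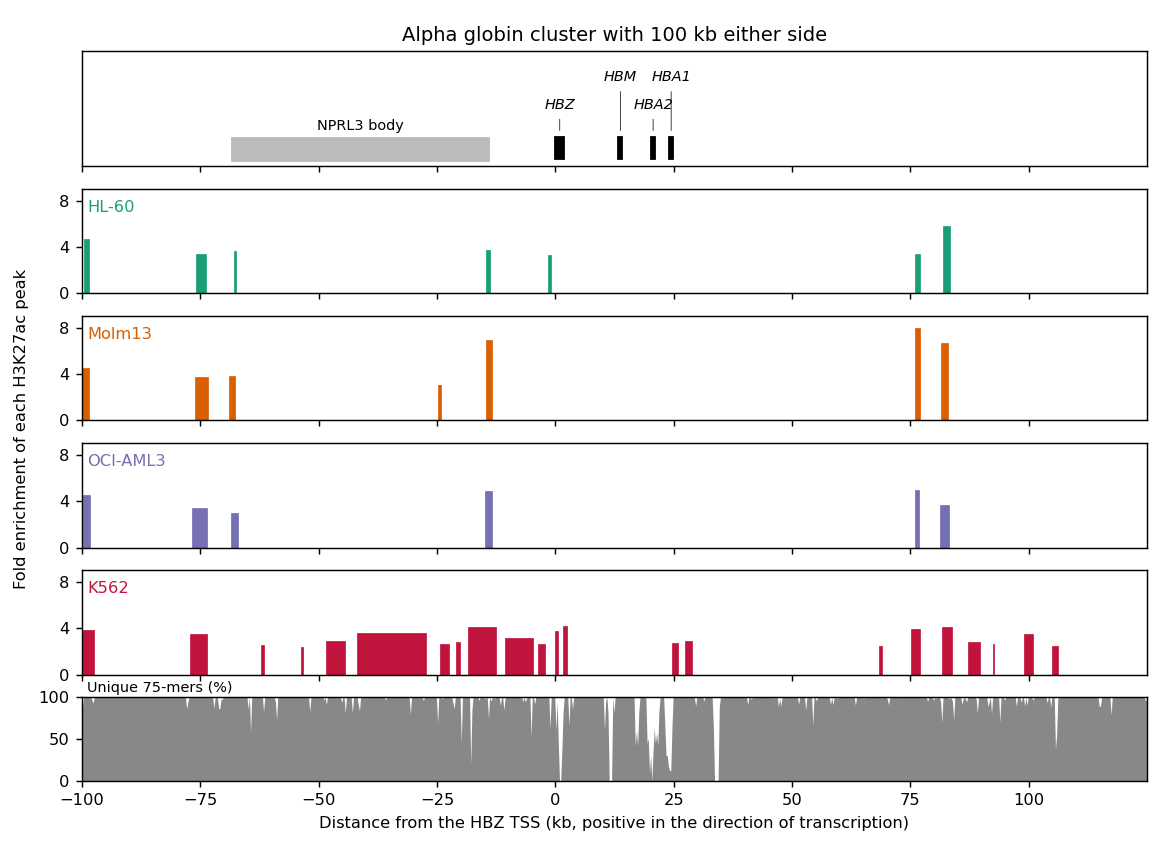
H3K27ac peaks around the alpha globin cluster in each cell line, drawn to scale by distance from the HBZ TSS (kb), with fold enrichment as height; the top row shows the genes (black) and the body of NPRL3 (grey), and the bottom row the share of 75-base words found once in the genome. Peaks at the outer genes appear in all 4 lines, the blocks across NPRL3 up to HBZ in K562, and the 22.2 kb from HBZ to HBA1 is empty in every line.

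The adult alpha genes are near-identical copies, and the authors kept only reads that mapped to a single place, so the share of sequence found once in the genome was measured around each TSS. The study's reads were 75 bases long, single-end or paired-end. Within 500 bp of the TSS, 18.5% of 75-base words at HBA2 and at HBA1 were unique, and 13.5% of 50-base and 23.5% of 100-base words. At HBG2 and HBG1, which are also near-identical and whose TSSs lay inside the 21.7 kb peak, 42.7% of 75-base words were unique. Uniqueness by 75-base words was 89.1% at HBZ and 100% at HBM, HBE1, HBD and HBB, and over the 22.2 kb gap from HBZ to HBA1 it was 81.0%. The part of mappability in the absence of peaks at HBA2 and HBA1 was not tested. Over the whole alpha window 97.6% of 75-base words inside K562 peaks were unique and 95.1% outside them, and over the beta window 96.8% and 94.6%.

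**Figure D4:**
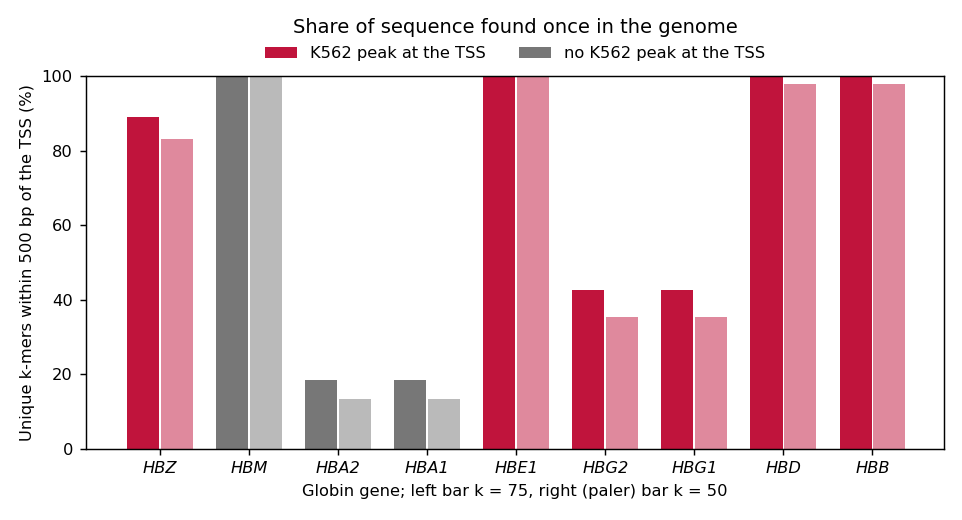
Share of 75-base (dark bars) and 50-base (pale bars) words within 500 bp of each globin TSS that occur once in the hg38 genome, in percent, with the genes marked in K562 set apart from those that were not. For 75-base words HBA2 and HBA1 are lowest at 18.5%, HBG2 and HBG1 next at 42.7%, and HBM, HBE1, HBD and HBB are at 100%.

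Short words that erythroid factors bind were counted in the K562 peaks, where a wider peak has room for more copies. AGATAA, the core of GATA factor sites, and TGAGTCA, the core bound by NFE2 and AP-1 factors, were counted on both strands, and they can share at most 1 end base. Over all K562 peaks there were 0.739 AGATAA and 0.209 TGAGTCA matches per kb. The peak over HBE1 and the stretch upstream of it had 25 AGATAA matches (0.965 per kb) and 11 TGAGTCA matches (0.425 per kb). In the gamma globin peak there were 24 (1.11 per kb) and 2 (0.0921 per kb), and in the HBD peak 6 (1.30 per kb) and 2 (0.434 per kb). The wide NPRL3 peak had 6 (0.411 per kb) and 4 (0.274 per kb). AGATAA density was thus above the K562 average in the peaks at HBE1, the gamma genes and HBD and below it in the wide NPRL3 peak, and neither HBZ peak held a match to either word. TGAGTCA density was below average in the gamma globin peak. The peak upstream of HBB had 1 AGATAA match (0.638 per kb) and that at its 3′ end none. High density was not particular to globin peaks: chr11:5128963-5133114 had 1.69 AGATAA per kb and chr11:5166301-5167355 had 3.79, while other peaks of the beta window had none. These counts come without an error and describe letters, not binding.

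**Figure D5:**
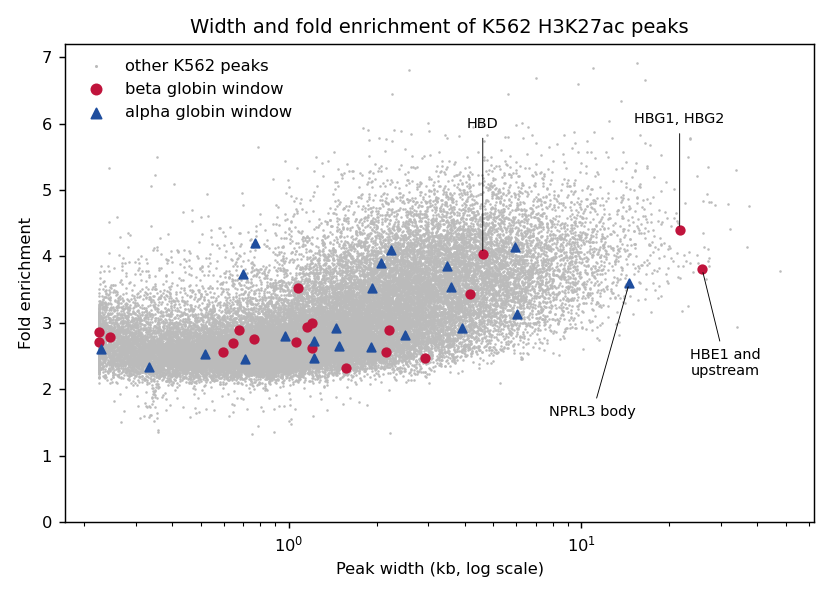
Width (kb, log scale) against fold enrichment for all 37424 K562 H3K27ac peaks (grey), with the peaks of the beta window (red circles) and the alpha window (blue triangles) picked out. The HBE1 and the shared HBG2 and HBG1 peaks lie at the far right at 25.9 and 21.7 kb with folds of 3.81 and 4.40, the wide NPRL3 peak at 14.6 kb, and the HBB peak is the lowest red circle at 2.31.

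Genes of the globin pathway were read in the same way. Of 15 factors that bind, loop or repress the globin control regions, 14 had a TSS peak in K562, 11 in each of Molm13 and OCI-AML3, and 7 in HL-60. Over all protein-coding genes these shares were 52.1%, 49.9%, 54% and 41% for K562, Molm13, OCI-AML3 and HL-60, and the count in HL-60 was near that background. GATA1, KLF1 and TAL1, activators of erythroid genes, were marked in K562 alone, with folds of 4.74 (98.0th percentile), 3.99 (89.5th) and 4.87 (98.6th). SOX6, a repressor of HBE1, was likewise marked in K562 alone, at the 58.5th percentile. NFE2 was marked in 3 lines: in K562 its peak was 33.9 kb wide with a fold of 5.31 (99.6th percentile), in Molm13 13.5 kb wide (5.25, 74.1st percentile), and in OCI-AML3 8.63 kb wide (3.39, 66.3rd percentile). BCL11A, a repressor of the fetal gamma genes, went the other way. It was the one factor of the list without a TSS peak in K562, and it was marked in HL-60 (5.97, 86.2nd percentile), Molm13 (5.01, 71.6th) and OCI-AML3 (3.48, 69.0th). AHSP, the chaperone of free alpha chains, was unmarked in all 4 lines. Of the 5 globin family genes outside the members (HBQ1, MB, CYGB, NGB and ADGB), HBQ1 in K562 was the only one marked in any line.

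Outside the windows, 869 protein-coding genes were marked in K562 alone. The 5 whose K562 fold was closest to the median of the 6 marked members (3.92) were IFITM1 and IFITM3 (3.92 each), HTR1F (3.92), FAM83A (3.93) and TRPC1 (3.93). The likeness rests on 1 value in 1 library. The median counts the peak shared by HBG2 and HBG1 for each of them. IFITM1 and IFITM3 had the same fold (3.92444), and whether 1 peak gave both was not examined. The 5 genes had no TSS peak in the other 3 lines, as was the case for 5 of the 6 marked members but not for HBD. In the separate list of 393 dCas9 peaks, from K562 cells with sgRNAs to the LTR2B transposon family, no peak lay in either window, and the nearest were 860 kb from the centre of the alpha window and 1603 kb from that of the beta window.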

How the data were processed

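The series held 19 ChIP-seq samples, of which 5 had a peak list. The 14 others were not analysed here. By the submitters' processing notes and the study's methods, the authors trimmed reads with Trim Galore 0.4.5, aligned them with Bowtie2 (2.3.4 in the notes, while the study's methods name another version), kept uniquely mapped reads and called peaks per sample with MACS2 2.1.1 at a q limit of 0.05, in broad mode for histone marks. The input library given to the caller was not given in the sources used here. The deposited lists give each peak a score, a fold enrichment ratio, and p and q values as −log10, all as the authors' caller wrote them, and the last column of the dCas9 list, the summit offset, was not used. No read counts accompany the lists, so depth is unknown and no interval could be given.

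The members and gene lists were chosen with earlier results of these data known. Peaks on chromosomes 1 to 22, X and Y were kept (35 to 70 per H3K27ac list were left out), converted to 1-based hg38 coordinates and joined with GENCODE 44 protein-coding genes in Python 3.11.15 (NumPy 2.4.6, pandas 2.3.3). A gene was marked where a peak lay within 500 bp of the TSS of its canonical transcript. Named were all members, every peak at their TSSs or in a control region (the body of NPRL3, the 25 kb upstream of HBE1), the 3 peaks of highest fold per window, marked members of each list, and the 5 genes closest in fold to the members. The peak-to-gene join was tested on simulated peaks and against bedtools 2.31.1. With 1 library per line no test was run. Alternatives were a q limit, list length, TSS distance, TSS choice, flank and merging.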

Additional observations from a re-analysis of the deposited data

How the results depend on the processing

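Of 88 alternative values, 68 stayed within 1.5 times the reported count. These include reported counts of 0 in HL-60 and OCI-AML3. A stricter q limit, fewer peaks, a shorter flank or requiring the TSS base could not change a 0. The 68 therefore do not measure how stable the results are. The count of members with a TSS peak in K562 stayed between 5 and 7 under each alternative: HBB was lost with a q limit of 0.05 or 0.001, with the strongest 20772 peaks of each list and with the TSS base itself required, HBA1 was gained within 2000 bp and HBM with any annotated TSS. In HL-60 the count rose to 1 (HBZ) within 2000 bp. In Molm13 it fell to 0 with q under 0.001, with the strongest 20772 peaks and with the TSS base required. The share over all protein-coding genes was not recomputed under these alternatives, so these counts cannot be set against a background.

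With q under 0.001 the alpha window held 2 peaks in HL-60, 4 in Molm13 and 12 in K562, the beta window 0 in Molm13 and 5 in K562, and the control regions 0 in HL-60, 1 in Molm13 and 4 in K562. With the strongest 20772 peaks the beta window held 0 in Molm13 and 8 in K562, and the control regions 5 in K562. With a flank of 50 kb the alpha window held 12 in K562, 1 in OCI-AML3 and 2 in each of the other lines, HL-60 and Molm13, and the beta window 11 in K562. Fewer peaks are kept or a shorter stretch is read in each of these by construction. K562 held the most peaks in each window and in the control regions under each of these alternatives. No paired analysis was possible because a single library per line came with peaks and nothing was tested. Without replicates, the spread between libraries of 1 line is not known, and depth limits which absent peaks could have been called.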
